A study of Mus musculus with 3 samples.

Results

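The regions described here were 196 tiles of 1 kb that carried methylated-DNA coverage in Braf-activated organoids kept in full medium, with little or none in the other 2 libraries of the study. They were 0.00796% of the 2462738 tiles on chromosomes 1 to 19. A tile was 5 consecutive 200-bp bins counted from position 1 of its chromosome, and its coverage was the mean of the normalised values of those bins, with the lowest value of the library taken as 0. A tile was a member where coverage reached at least 0.5 in Braf full medium and at most 0.1 in both other libraries, so the tiles were chosen by these coverage values, which are given below only as a description. Joining members that touch gave 152 regions. All organoids came from crypts of the proximal colon of male mice about 40 days old, heterozygous for a Braf V600E allele that stays silent until Cre recombinase acts. The EV library came from organoids that had received only the lentiviral backbone, and the other 2 from organoids with the allele activated by lentiviral Cre; all 3 carry BRAF3 in their titles. Culture lasted 5 months and went on for 3 weeks in full medium, with Wnt3a, R-spondin, Noggin and EGF, for EV and for 1 Braf library, and in Base medium, which leaves out the stem-cell niche factors, for the other. The labels used here do not say what the number in BRAF3 stands for, or whether EV and Braf organoids came from 1 animal. Each group held 1 library, so no difference has a replicate check, no p-value is given, and both contrasts share the Braf full medium library.

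Methylation of cytosine in the CpG dinucleotide is copied at each cell division, and most CpGs of a mammalian genome carry it. Stretches dense in CpGs, many of them at gene promoters, are usually left unmethylated. In the human colon, serrated tumours with mutant BRAF often gain methylation across many such promoters. Methyl-CpG-binding domain sequencing (MBD-seq) captures fragments that hold methylated CpGs, so coverage rises with both the number of CpGs in a fragment and the share of them that is methylated. In bulk organoids, full methylation in some cells and partial methylation in all cannot be told apart.

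The deposited values resolved into whole read overlaps per bin, 20914446 in Braf full medium, 12530155 in EV and 14850571 in Base, or an estimated 8648828, 5041726 and 5985362 reads. The Braf full medium library had the highest background. Over the 2404946 tiles under 0.5 in all libraries, mean coverage was 0.0474 in Braf full medium, 0.0116 in EV and 0.0101 in Base, a factor of 4.10 over EV and 4.69 over Base. A tile at 0.5 in Braf full medium held 21.1 estimated reads, and a tile at 0.1 held 4.01 in EV and 5.44 in Base. Counting intervals below cover counting error only.

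The sequences below show what the DNA at the members looked like. They are the bases just upstream of 8 annotated starts whose promoter window lies over a member, kept to bases outside every protein-coding gene, with each CpG in capitals. The first 6 lie away from the segments where members cluster and range from poor to dense in CpGs. Of these, the members at Acan and Wdr31 adjoin another member. The last 2, both poor in CpGs, lie in a segment of chromosome 8 where members cluster. All were taken from RefSeq on GRCm38.p6 (mm10) and are written 5′ to 3′ on the strand of the gene.
Cfap300: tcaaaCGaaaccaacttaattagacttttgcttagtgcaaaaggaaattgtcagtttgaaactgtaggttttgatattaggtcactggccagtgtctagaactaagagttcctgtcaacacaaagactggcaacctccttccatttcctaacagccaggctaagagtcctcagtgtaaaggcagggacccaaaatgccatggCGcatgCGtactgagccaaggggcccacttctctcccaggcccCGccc
Acan: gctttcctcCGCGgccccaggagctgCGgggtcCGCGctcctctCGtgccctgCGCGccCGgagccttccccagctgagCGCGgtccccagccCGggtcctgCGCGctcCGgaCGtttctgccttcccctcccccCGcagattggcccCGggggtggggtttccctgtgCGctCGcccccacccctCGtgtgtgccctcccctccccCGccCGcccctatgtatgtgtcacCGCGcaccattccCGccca
Wdr31: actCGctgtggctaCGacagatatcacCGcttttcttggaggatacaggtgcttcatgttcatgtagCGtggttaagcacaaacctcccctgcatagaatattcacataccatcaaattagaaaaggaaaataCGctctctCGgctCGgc
Smim43: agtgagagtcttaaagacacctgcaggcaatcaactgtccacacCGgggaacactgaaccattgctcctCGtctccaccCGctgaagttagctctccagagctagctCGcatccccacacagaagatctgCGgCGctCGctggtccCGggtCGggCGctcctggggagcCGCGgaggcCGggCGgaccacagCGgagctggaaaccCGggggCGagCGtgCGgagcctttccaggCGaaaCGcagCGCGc
Ccdc30: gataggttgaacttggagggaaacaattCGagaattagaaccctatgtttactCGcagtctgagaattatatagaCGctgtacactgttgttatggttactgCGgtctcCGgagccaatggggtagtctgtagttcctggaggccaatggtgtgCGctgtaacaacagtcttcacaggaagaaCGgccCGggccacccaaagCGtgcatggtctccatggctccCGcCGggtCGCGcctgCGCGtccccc
Grb14: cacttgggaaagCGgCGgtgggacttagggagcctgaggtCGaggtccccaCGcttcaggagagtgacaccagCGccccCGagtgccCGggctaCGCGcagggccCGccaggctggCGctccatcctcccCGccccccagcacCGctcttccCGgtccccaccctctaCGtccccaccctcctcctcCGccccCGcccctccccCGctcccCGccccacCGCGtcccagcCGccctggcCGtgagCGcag
Gm51571: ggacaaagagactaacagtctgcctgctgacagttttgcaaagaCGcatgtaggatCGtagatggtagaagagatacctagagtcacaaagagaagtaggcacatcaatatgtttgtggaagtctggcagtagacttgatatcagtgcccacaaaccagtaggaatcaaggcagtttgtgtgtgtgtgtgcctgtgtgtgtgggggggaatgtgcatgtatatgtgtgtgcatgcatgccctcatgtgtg
Gm51594: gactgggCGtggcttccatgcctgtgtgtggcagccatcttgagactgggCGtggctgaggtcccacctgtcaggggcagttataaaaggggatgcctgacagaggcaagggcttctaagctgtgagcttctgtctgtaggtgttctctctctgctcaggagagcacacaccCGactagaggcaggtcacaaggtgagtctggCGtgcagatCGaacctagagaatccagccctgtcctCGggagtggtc

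Acan, which encodes the cartilage proteoglycan aggrecan, held 26 CpGs in those 250 bases (chr7:79052976-79053225, forward strand), Grb14, an adaptor of the insulin receptor, held 24 (chr2:65022767-65023016, reverse strand), Smim43, a small membrane protein, held 23 (chr3:36521413-36521662, reverse strand) and Ccdc30, a coiled-coil protein, held 15 (chr4:119415522-119415771, reverse strand). Wdr31, a WD-repeat protein, held 7 in the 150 bases shown (chr4:62471000-62471149, reverse strand). Cfap300, a protein needed to assemble motile cilia, held 4 (chr9:8042876-8043125, reverse strand). Its tile had the highest coverage of all members, but the highest bins of that tile lie inside the gene, outside the bases shown. CpGs under those bins were not counted, so the count upstream does not describe the DNA under the peak. The predicted genes Gm51571 (chr8:55114679-55114928, forward strand) and Gm51594 (chr8:55382541-55382790, forward strand) held 2 and 6. In the bins under these bases, Acan read 0.0167 in EV, 2.24 in full-medium Braf and 0.173 in Base. The same bins at Smim43 read 0.0251, 1.57 and 0.0741, and at Grb14 0, 0.686 and 0. Coverage in Braf full medium stood above that of both other libraries at all of these upstream bases. This largely follows from taking windows that lie over members and is not a separate result.

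Across all 196 members, coverage in Braf full medium ran from 0.510 to 2.39 with a median of 0.627. Most members sat low in that range: 87 were under 0.6 and 22 reached 1. In EV the median was 0.0402 and the highest 0.0904, with 32 members at 0. In Base the median was 0.0445 and the highest 0.0963, with 17 at 0, and 5 members had no overlap in either library. Against the mean background of its own library, the median member stood at 3.48 times in EV, 13.2 times in Braf full medium and 4.40 times in Base. Low coverage in EV and Base was thus above the mean background of those libraries at most members, 150 in EV and 172 in Base, but on few reads. The median stood for 1.61 estimated reads in EV and 2.42 in Base. In EV, 2 overlaps in a tile, an estimated 0.805 reads, were enough to lie above that mean. At the lower edge, the members nearest the minimum had 0.510 in Braf full medium, and the nearest tiles left out had 0.50. At the upper edge, 9 members reached 0.0963 in Base, among them tiles in Sfi1 and Gm40369, while tiles in Pde1c and Gm51571 were left out at 0.1004 in EV with 0.686 and 0.578 in Braf full medium.

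**Figure D1:**
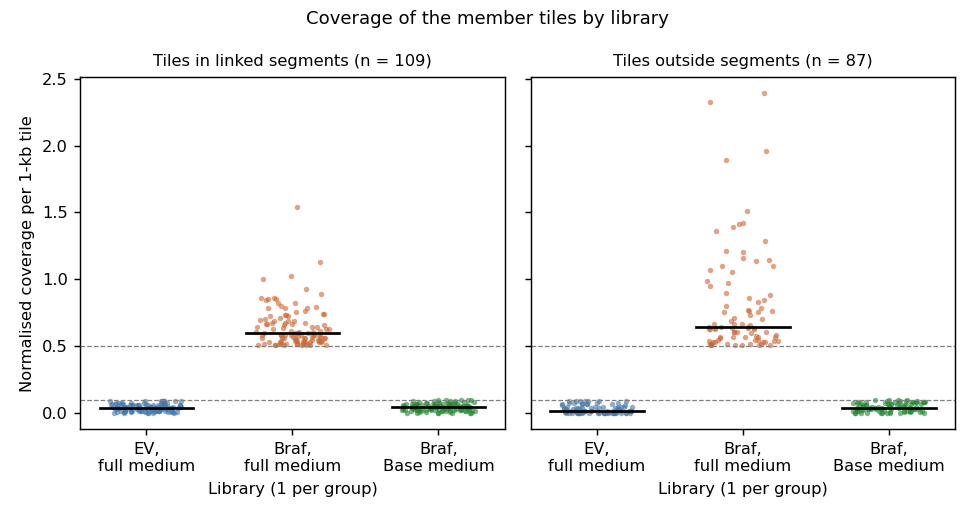
Normalised coverage per 1-kb tile of each member in the 3 libraries, 1 point per tile, for members in linked segments (left, n = 109) and outside them (right, n = 87). Black bars are medians and dashed lines are the thresholds of 0.5 and 0.1 that chose the tiles, which fix the gap between the libraries; the highest points, up to 2.39, lie outside the segments.

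The members were few among the tiles that Braf full medium covered. Of 47452 tiles at 0.5 or more in that library, 196 (0.413%) were at or under 0.1 in both others. Tiles covered in all libraries made up 81.2% of the 47452 and 1.56% of all tiles. Another 528 (1.11% of the 47452, 0.0214% of all tiles) were covered in Base as well and low in EV. For comparison, 149 tiles (0.00605%) were covered in Base alone. A further 200 tiles were low in EV and between the thresholds in Base, and 104 were between them in EV and low in Base.

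The members were spread very unevenly over the genome. Chromosome 1 held 79, chromosome 8 held 32 and chromosome 13 none. The 2 richest of 258 segments of 10 Mb held 94 members (47.96%), while 45 segments held 1 each. Chromosome 1 had 40.3% of the members, but 6.25% of the tiles covered in both Braf libraries and not EV, 7.38% of those covered in Base alone and 7.94% of all tiles. After this was seen, runs of at least 4 members with gaps of at most 250 kb were joined into linked segments. There were 5, on chromosomes 1, 3, 8 (a pair) and 17, and they held 109 members (55.6%) in 71 regions. The other 87 members (44.4%), in 81 regions, lay outside.

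**Figure D2:**
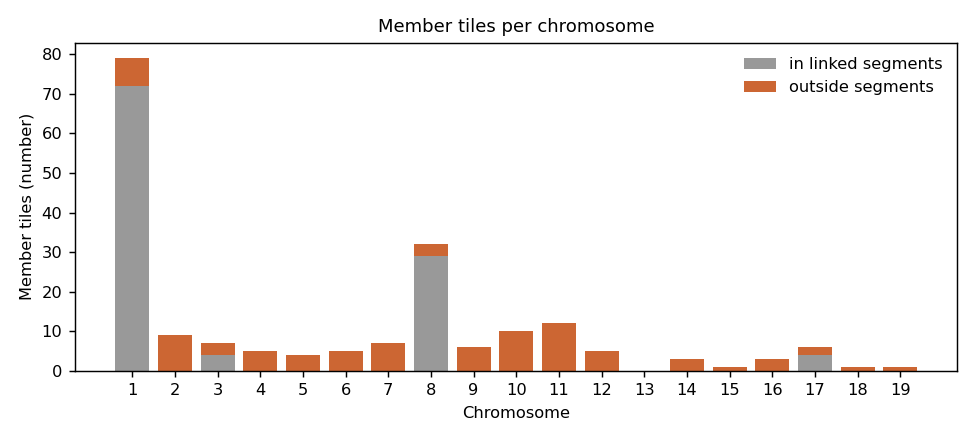
Number of member tiles on each chromosome from 1 to 19, in linked segments (grey) and outside them (orange). Chromosome 1 stands out with 79 tiles, 72 of them in 1 linked segment, and chromosome 8 follows with 32.

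Members in and outside the segments differed in shape. The unbroken stretch of bins at 0.5 or more around a member had a median length of 600 bp outside segments and 1000 bp inside them. The tiles on either side of a member averaged a median of 0.216 in Braf full medium outside segments and 0.50 inside. From 2 to 10 kb away, medians outside segments fell to between 0.0490 and 0.0686 in Braf full medium, near the background of that library, and were 0 throughout in EV. Inside the segments Braf full medium still read between 0.25 and 0.372 at those distances, against 0.0201 to 0.0402 in EV and 0.0148 to 0.0296 in Base. No other tile at 0.5 or more in any library lay within 10 kb of 36 of the 87 members outside segments (41.4%), against 7 of the 109 inside. Members outside were mostly narrow peaks over a low surround. Members inside differed by segment: the median tile in Braf full medium was at 0.274 in the chromosome 1 segment and 0.186 in the longer segment on chromosome 8, a broad plateau, but at 0.0980 on chromosome 3 and 0 in the other 2.

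**Figure D3:**
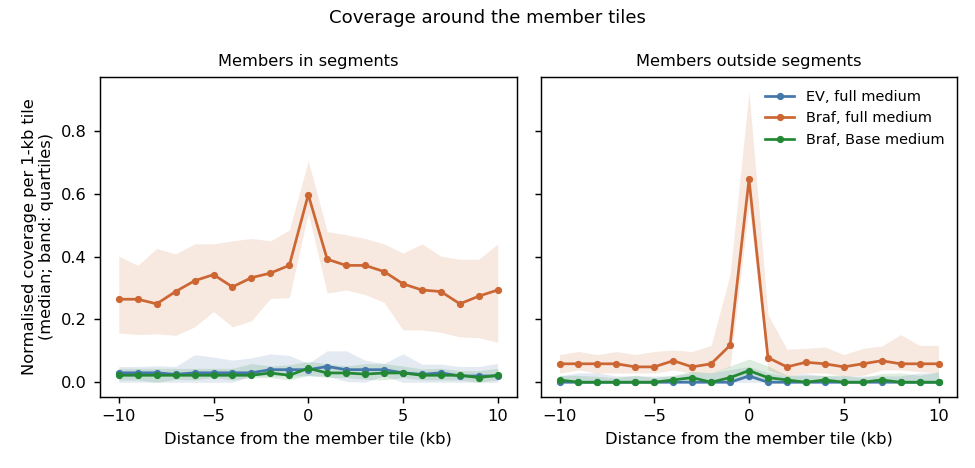
Median coverage per 1-kb tile at distances of -10 to 10 kb from member tiles, other members left out, in segments (left) and outside (right), with 1 line per library and bands for the quartiles. In Braf full medium the median in segments stays between 0.25 and 0.372 beyond 2 kb, while the peak outside segments falls to at most 0.0686.

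The largest segment was chr1:84963001-85626000, with 72 members among 663 tiles. It holds 8 protein-coding genes, A530032D15Rik, Gm38510, Gm7609, C130026I21Rik, Gm7592, Gm2427, Sp110 and Sp140, and 10 pseudogenes. Sp110 and Sp140 encode speckled nuclear body proteins best known from leukocytes, and A530032D15Rik and C130026I21Rik are related copies of the family. The longest region of members, 5 tiles at chr1:85109001-85114000 beside A530032D15Rik, reached 1.03 in Braf full medium, with at most 0.0803 in EV and 0.0370 in Base. Regions of 4 tiles each followed at chr1:85249001-85253000 and chr1:85278001-85282000, both in Gm38510 and C130026I21Rik, with peaks of 0.725 and 0.853. The 5 regions of 3 tiles, from 0.686 to 0.9996 at their peaks, were all in this segment too. At chr1:85595001-85596000, inside both Sp110 and Sp140, the tile read 0.0402 in EV, 0.862 in full-medium Braf and 0.0593 in Base.

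The whole segment, and not only its members, stood above its surroundings in every library. In tiles under 0.5 in both EV and Base, mean coverage was 0.276 in Braf full medium, 0.0371 in EV and 0.0279 in Base. These were 4.86, 3.15 and 3.06 times the means over 1 Mb on each side, and rested on 17792, 2337 and 2378 overlaps. EV and Base were thus raised there by similar factors, and Braf full medium by a larger one. These means include the members, which the rule set high in Braf full medium alone, so part of its larger factor follows from the rule. The median over all tiles of the segment was 0.274 in Braf full medium, against 0.0490 in its flanks. In EV and Base it was 0.0201 and 0.0222, against 0 in the flanks of both. Whether reads from near-identical copies were placed here was not tested. Of the 7 promoter windows over members in segments, 5 (71.4%, exact binomial 95% interval 29.0 to 96.3), among them those of Sp110, Sp140, A530032D15Rik and C130026I21Rik, shared a run of 50 bases with a window elsewhere in the table, against 6.91% of all 31396 windows. Outside segments 1 of 23 did (4.35%, 0.110 to 21.9). Of the 5, that of Gm51594 lies on chromosome 8. These intervals treat windows as independent, which those of related copies are not. Values of the genes whose windows share such a run are therefore uncertain as to the copy they belong to. The rest of this segment was not checked in this way, so the same doubt is not settled there.

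The segments on chromosome 8 were thinner. At chr8:20071001-20706000, 21 of 635 tiles were members, with a median of 0.539 in Braf full medium. With members included, the segment stood at 1.82, 2.74 and 2.20 times its flanks in EV, Braf full medium and Base. Gm15319, Gm40469, Gm21119 and 8 pseudogenes lie in it. At chr8:55114001-55383000, 8 of 269 tiles were members around Gm51571 to Gm51594, 7 predicted genes, and the factors were 2.72, 2.07 and 1.07. Here EV was raised more over its flanks than Braf full medium. A segment of 57 tiles at chr3:96346001-96403000 held 4 members beside 6 tRNA genes. Its highest tile, chr3:96402001-96403000, within 1 kb of n-TNgtt10 and the lncRNA Gm26654, read 0.0602 in EV, 1.54 in full-medium Braf and 0.0222 in Base. The 4 members at chr17:13587001-13655000 overlapped no annotated gene. There the factors, again with members included, were 0.342, 0.972 and 0.342, so this segment as a whole was not raised over its flanks.

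**Figure D4:**
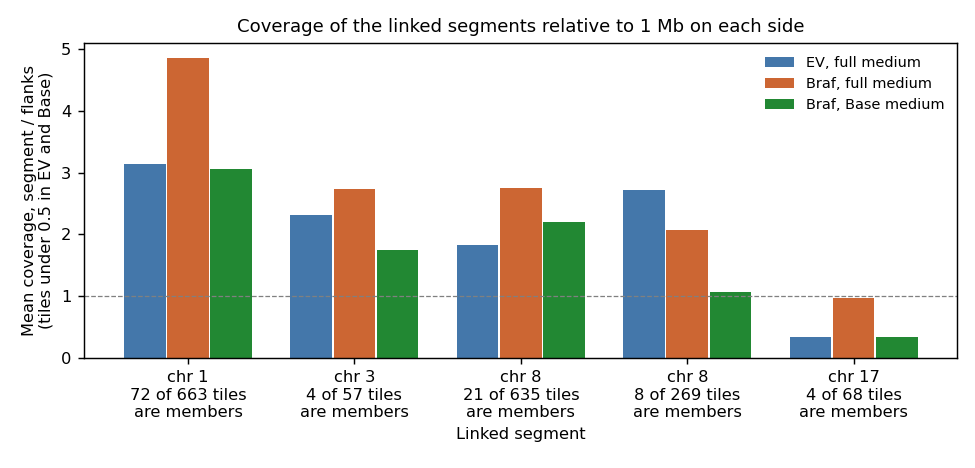
Mean coverage of each linked segment divided by that of 1 Mb on each side, over tiles under 0.5 in both EV and Base, for the 3 libraries. Members are included, and the rule set these high in Braf full medium alone. The dashed line marks a ratio of 1; Braf full medium reaches 4.86 on chromosome 1 and 0.972 on chromosome 17, and on the shorter chromosome 8 segment EV is the highest.

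Outside the segments the strongest members were single peaks at or in named genes. Cfap300 had the highest, chr9:8042001-8043000, with 0.0301 in EV, 2.39 in full-medium Braf and 0 in Base. This was 3, 244 and 0 overlaps, the 244 standing for an estimated 101 reads (exact Poisson 95% interval 82.2 to 123). Its 5 bins read 0, 1.67, 4.07, 4.31 and 1.91 in Braf full medium, and the tiles on either side averaged 0.0441, and the stretch of bins at 0.5 or more was 800 bp long. The tile holds the end of the gene where transcription starts and the nearer part of the upstream bases printed above.

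Slc22a21, a carnitine transporter of the organic cation family, carried 2 adjoining members at the high-coordinate end of the gene. The tile at chr11:53979001-53980000 read 0.0100 in EV, 2.32 in full-medium Braf and 0 in Base, and the next one read 0.0402, 1.51 and 0. The start of the lncRNA Gm30927 lies in the second, and its window of 300 bases held 33 CpGs. At the 3 tiles of Cfap300 and Slc22a21 EV held at most 1.61 estimated reads and Base none.

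Sox9, a transcription factor of crypt stem and Paneth cells and of cartilage, had 2 adjoining members inside the gene, 1 kb or more from either end. The tile at chr11:112785001-112786000 read 0 in EV, 1.89 in full-medium Braf and 0.0445 in Base, and that before it read 0, 1.42 and 0.0148. With EV set to a floor of 3 reads per tile, coverage of the first was 25.3-fold higher in Braf full medium than in EV. This ratio is not a lower limit, because the counting interval of the 0 reads in EV reached 3.69. The interval of the 79.8 estimated reads in Braf full medium began at 63.3. The ratio also leaves the higher background of Braf full medium uncorrected. Fgfr3, a fibroblast growth factor receptor, read 0, 1.16 and 0.0148 at chr5:33723001-33724000, also inside the gene. Neither gene had an overlap in EV in these tiles. Wdr31 read 0, 1.15 and 0.0222 at its start and 0, 0.686 and 0 in the tile upstream. At the other end of the same gene, chr4:62448001-62449000 was covered in every library, with 6.03, 5.96 and 5.77.

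Other members among the 15 highest regions had some overlaps in EV, Base or both. A tile shared by the ends of Pfdn4, a subunit of the prefoldin chaperone, and Cyp24a1, the enzyme that breaks down active vitamin D, read 0.0703 in EV, 1.41 in full-medium Braf and 0.0445 in Base. Acan read 0, 1.28 and 0.0815 in its higher tile. P2ry6, a receptor for extracellular UDP, read 0.0502, 1.14 and 0, and Smim43 read 0.0201, 1.10 and 0.0445. A tile at chr14:55815001-55816000, with no gene in reach, read 0.0301, 1.39 and 0.0519. In Braf full medium these 5 tiles held between 46.3 and 59.5 estimated reads, and in each other library at most 4.43.

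A few members outside the segments lay in a different setting. At chr10:3110001-3111000 and chr10:3115001-3116000 coverage was 1.36 and 1.21 in Braf full medium, with 0.0963 in Base at both. In Sfi1, a centrosome protein, a tile at 1.22 belonged to a stretch of 23800 bp at 0.5 or more in Braf full medium. Counting these, 6 members on 4 chromosomes lay within 250 kb of the first read of their chromosome, which on mouse chromosomes is the side of the centromere. Of the 87 members outside segments, 7 had a neighbouring tile covered in Base and 2 of those also a neighbour covered in EV, at Gm40369 and Ckb. The other 80 had none.

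Below the 15 highest regions, further members outside the segments were picked out as examples after their values had been seen. Some had other covered tiles beside them. The order by kind of gene is for reading only, rests on no count and was not tested. Tlx2, a homeobox factor of enteric neurons and a member of the list of developmental transcription factors, had 2 members, with 0.0201 in EV, 0.862 in full-medium Braf and 0.0148 in Base in the first and 0.0100, 0.764 and 0.0815 in the second. Eomes, a T-box factor, read 0.0201, 0.843 and 0.0741 just before its start. The tiles on either side averaged 1.32 in Braf full medium and 0.263 in Base at the first Tlx2 member. At Eomes they averaged 0.710 and 0.263. Runx3 and Runx2, runt-domain factors, read 0.784 and 0.549 in Braf full medium inside their genes, and Msx3 and Lhx3, homeobox factors of the nervous system, read 0.647 and 0.519. In EV these 4 genes lay between 0 and 0.0301, and in Base between 0.0296 and 0.0815. The adjoining tiles averaged 0.387 in Braf full medium and 0.233 in Base at Msx3. They averaged 0.157 and 0.122 at Runx3, and 0.0539 and 0.0185 at Lhx3. Of the genes in this paragraph, Eomes, Runx2 and Msx3 are in none of the gene lists used below.

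Some examples encode ligands or parts of growth-factor signalling. Pdgfd, a ligand of platelet-derived growth factor receptors, read 0.0201 in EV, 0.9702 in full-medium Braf and 0.0593 in Base at its start. Grb14 read 0, 0.627 and 0. Bmp5, a bone morphogenetic protein, read 0.0602, 0.627 and 0.0741 inside the gene, and Sos2, an exchange factor that activates Ras, read 0.0402, 0.706 and 0.0593. Pdgfa, another ligand, was near the minimum with 0.510 in Braf full medium, and its neighbouring tile was also covered in Base. The tiles on either side of the Pdgfa member averaged 2.23 in Braf full medium, above the member itself.

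Other examples encode proteins of metabolism or cell structure. Mrpl24, a protein of the mitochondrial ribosome, read 0 in EV, 0.951 in full-medium Braf and 0.0148 in Base. Slc16a3, a lactate exporter, read 0, 0.882 and 0.0815, and here the next tile was covered in Base too. Gstt2, a glutathione transferase, had 1 member at 0.0301, 1.06 and 0.0296 across its end and another inside, beside a tile covered in Base. Crb2, a polarity protein of epithelia, read 0, 1.07 and 0.0667, and Dnah14, a dynein heavy chain, 0, 0.755 and 0.0296. Sptbn5, a spectrin, had no overlap in EV or Base and 0.568 in Braf full medium. Near the lncRNA Snhg14, a host of many small nucleolar RNAs, 2 tiles on chromosome 7 read 0.608 and 0.539 in Braf full medium.

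Position relative to genes was not used to choose the tiles. A tile within 1 kb of the end of a protein-coding gene counted as at a gene end. Of the 196 members, 56 were (28.6%, exact binomial 95% interval 22.4 to 35.4), against 4.41% of all tiles. Outside segments it was 38 of 87 (43.7%, 33.1 to 54.7) and inside 18 of 109 (16.5%, 10.1 to 24.8). Tiles covered in both Braf libraries and not EV were at a gene end in 52.5% of cases (48.1 to 56.8), and those covered in Base alone in 62.4% (54.1 to 70.2). For tiles covered in all libraries it was 8.28%. Members outside segments thus had a share nearer to the tiles gained in both Braf libraries than to the genome, and members as a whole a lower one. These intervals treat tiles as independent, which neighbours are not.

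Another member touched 38.8% of the members (31.9 to 46.0), 58.7% in segments and 13.8% outside. The same share was 19.5% for tiles covered in both Braf libraries, 18.8% for Base alone and 50.5% for tiles covered in all. Inside protein-coding genes lay 123 members (62.8%), against 40.7% of all tiles, 80.5% of those covered in both Braf libraries and 88.6% of those covered in Base alone.

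Promoter windows, taken as 250 bases before to 50 after a RefSeq start, overlapped members in 30 of 31396 cases (0.0956%), and 23 of them (0.0733%) were outside segments. These 23 held a median of 22 CpGs against 7 over all windows, and 65.2% had at least 15 (42.7 to 83.6), against 35.2%. The densest were at Slc16a3 with 36, Gm30927 with 33, Acan with 31 and Grb14 with 30. At the other end were Gm40369 with 3, Cerkl, a ceramide kinase-like protein, with 5, and Cfap300, Pdgfd and Rln3, a relaxin-family neuropeptide, with 8 each. The 7 windows in segments had a median of 6 and none reached 15. Windows over tiles covered in both Braf libraries had a median of 22, and 74.1% reached 15 (67.6 to 79.8). For Base alone the median was 26 and the share 85.3% (75.3 to 92.4). The 1123 windows over tiles covered in all libraries had a median of 14, and 46.9% reached 15 (44.0 to 49.9). Members outside segments thus overlapped windows with a median like that of the tiles gained in both Braf libraries. Their wide interval for the share holds that of the gained tiles and that of tiles covered in all libraries, so it separates them from neither. Members in segments had a lower median.

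**Figure D5:**
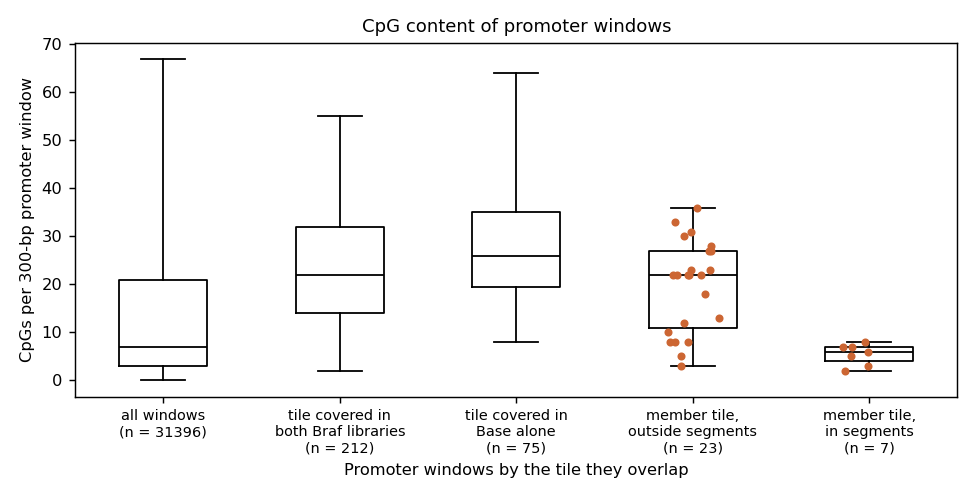
CpGs per promoter window of 300 bp. Boxes stand for all windows, tiles covered in both Braf libraries, tiles covered in Base alone, and members outside and in segments. They give quartiles and the median, whiskers the full range, and points the single windows over members. The 23 windows over members outside segments have a median of 22 and the 7 in segments a median of 6, against 7 over all windows.

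Members touched few genes of the lists drawn up for colon epithelium, Braf signalling and methylation in cancer. Of 20665 protein-coding genes, 43 had a member within 1 kb of an end (0.208%), or 35 with segments left out (0.169%). Of 631 genes in 21 lists, 1 did (0.158%), a share near that background: Tlx2, among 129 developmental transcription factors. The other 20 lists had none, among them Wnt antagonists (31 genes), Wnt ligands (18), intestinal stem cell genes (18), colonic differentiation genes (27), tumour suppressor and senescence genes (28), MAPK feedback and output genes (26) and Hox genes (39). With gene bodies counted as well, the intestinal transcription factors added Sox9, the methylator panel orthologs Runx3, the BMP and TGF-beta genes Bmp5 and the developmental factors Lhx3. None of 15 epithelial, 16 fibroblast and smooth muscle, 16 immune and 13 endothelial and neural markers had a member at an end or inside. The share over all protein-coding genes was not worked out with bodies counted. Neither the genes added that way nor the absences in these short lists are therefore read as a result.

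Cdx1, Sox17 and Cdkn2a had no member. The tile given here for each was covered in Braf full medium and in Base as well, and that of Cdkn2a was also over 0.1 in EV. Cdx1, a homeobox factor of the intestinal epithelium, reached 0 in EV, 2.19 in full-medium Braf and 1.47 in Base in its highest tile. Sox17, an endoderm factor, read 0.0301, 0.853 and 1.74, and Cdkn2a, which encodes cell cycle inhibitors, read 0.422, 2.89 and 2.77. Cdx2, the other intestinal Cdx gene, reached at most 0.127 in Braf full medium, with 0 in both others, and Braf itself 0.181, 0.255 and 0.0519.

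The number of members depended on how the libraries were put on 1 scale. With EV and Base each scaled up until its mean background equalled that of Braf full medium, 23 of the 196 still met the rule, 15 of the 87 outside segments and 8 of the 109 inside. With all libraries scaled to equal totals 47 did. Those scalings were among 9 settings of the thresholds, the scaling, the background, the tile average and the segments. In all 9, 4 tiles met the rule, among them 1 each at Fgfr3, Slc22a21 and Sox9. Some of the 9 could not remove them. A minimum of 0.25 or a maximum of 0.2 keeps all 196, and leaving out segments keeps every member outside them.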

How the data were processed

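Methylated DNA was measured by MBD-seq in 3 organoid libraries, 1 per group, from 100 to 200 ng of DNA sheared to 200 to 400 bp and read as single ends of 50 bp, per the labels' protocols. The authors deposited log2 values for 200-bp bins of chromosomes 1 to 19; other chromosomes were not analysed here. The tool Bowtie2 and the build mm10 come from the submitters' processing notes; how Bowtie2 was run, its version and how bin values were made are not given in the sources used here.

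Raising 2 to each log2 value gave a shared floor of 0.0153 plus whole steps in 100% of bins (tolerance 0.001 of a step). The step was 0.0490 in Braf full medium, 0.0502 in EV and 0.0370 in Base. Steps were taken as read overlaps, at 2.42, 2.49 and 2.48 overlaps per lone read. The authors' scaling was kept, so values are comparable only as far as it makes them so. With 1 library per group no test was run. Reads carry no molecular identifiers, so exact binomial and Poisson intervals cover counting error only.

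Members and gene lists were chosen with earlier results of these data known. Named were the 15 regions with the highest coverage in Braf full medium, the 5 longest regions (those of 3 tiles, which tie, as a group), up to 4 genes per list with a member at an end, the 3 tiles nearest each threshold on each side, and Cdx1, Cdx2, Sox17, Cdkn2a, Slc22a21, Wdr31 and Braf. One gene among the highest regions is not reported here and stays in the counts. Further genes outside this rule were named as examples after their values were seen, as the text says there. Gene positions came from RefSeq on GRCm38.p6, without exons or introns; the table of starts is incomplete and lacks chromosome 18. Without a genome, CpGs were counted only in promoter windows, and coverage of the adjoining tiles stood in for CpGs per tile. Alternatives moved each threshold, the scaling, the background, the tile grid, the tile average and the gene-end window. Leaving out linked segments and matching backgrounds were added after seeing the data. Functions were tested on simulated data; Python 3.11.15, numpy 2.4.6, pandas 2.3.3, scipy 1.17.1 and matplotlib 3.10.9 were used.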

Additional observations from a re-analysis of the deposited data

How the results depend on the processing

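Of 52 values under other settings, 34 moved and 18 did not. A count moved if it changed by over 1.5 times, and a share or median if it left the 95% interval of the reported one (exact binomial, or from order statistics for the median). Reported were 196 tiles, 38.8% of them next to another member, 28.6% at a gene end, 43 genes with a member at an end, and a median coverage of 0.441 in adjoining tiles in Braf full medium. In the same order, a minimum of 1.0 gave 22, 27.3%, 45.5%, 10 and 0.336, and a maximum of 0.05 gave 67, 26.9%, 35.8%, 20 and 0.367. Equal total coverage gave 47, 25.5%, 46.8%, 20 and 0.334. Scaling EV and Base up to the background of Braf full medium, added after seeing the data, gave 23, 0%, 39.1%, 9 and 0.367. Leaving out linked segments, also added then, gave 87 tiles, 13.8%, 43.7% and 0.216, with 35 genes. A minimum of 0.25 gave 1728 tiles, 15.5% at a gene end, 219 genes and 0.206, and a maximum of 0.2 gave 351 tiles and 75 genes. Taking the median of the bins lowered the share next to another member to 24.0% and the coverage of adjoining tiles to 0.367. A window of 5 kb raised the gene-end share to 43.9% and the genes to 79. Within those limits, subtracting each library's median background gave 149 tiles, all among the 196, and 37 genes, and moving the grid by 400 bp gave 207 tiles and 49 genes. For these moves the cause was not tested, except that stricter limits leave fewer tiles. The maximum of 0.1 rests on 4.01 estimated reads in EV and 5.44 in Base, so coverage under it is not shown to be absent. No paired analysis was possible because each group held 1 library.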
